A study of Mus musculus with 5 samples.

Results

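The 10 genes described here make up the core of the MHC class I antigen presentation route and the immunoproteasome that feeds it: the heavy chains H2-K1 and H2-D1, the light chain B2m, the peptide transporter subunits Tap1 and Tap2, the loading chaperone Tapbp, the inducible proteasome subunits Psmb8, Psmb9 and Psmb10, and the regulator Nlrc5. They were taken by symbol from a deposited table of 55401 genes, and all 10 were found. Mesenchymal stem cells of wild-type mouse bone marrow (BMSCs), which grow attached and can give rise to bone, fat and cartilage cells, were cultured for 72 h and held under continuous negative pressure of -80, -120, -160 or -200 mmHg for 48 h, and the control culture stood at 0 mmHg. RNA-seq was done on 1 library per condition, so differences between conditions have no replicate check and no test between them is possible. Neither the age and strain of the mice nor the number of cultures is given in the sources used here. The library totals lay between 16600622 and 18398911 reads. The control library held 2493 reads of 4 genes of the Y chromosome (Kdm5d, Uty, Ddx3y and Eif2s3y), which had 0 reads in every pressure library, so an effect of pressure and another origin of the control cells cannot be told apart in any contrast with the control.

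Class I molecules show fragments of a cell's own proteins to CD8 T cells and are found on nearly all nucleated cells. The proteasome cuts proteins into peptides, the TAP transporter carries them into the endoplasmic reticulum, tapasin (the product of Tapbp) holds the transporter beside empty class I molecules, and a peptide-filled heavy chain leaves for the surface together with beta-2 microglobulin. Interferons raise the whole route, and in cells so stimulated Psmb8, Psmb9 and Psmb10 are built into new proteasomes in the place of the standard catalytic subunits Psmb5, Psmb6 and Psmb7. Nlrc5, a NOD-like receptor family protein, acts on class I genes through a promoter module known as SXY, in which an X2 box with the letters TGACG lies a fixed distance from a Y box with the letters CCAAT.

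The promoter windows of 4 genes are shown because the levels of their genes differ in direction below: Tap1, whose window overlaps that of Psmb9, had fewer reads under pressure, the heavy chain genes did not, and B2m stood between. Each window runs from 250 bases before to 50 bases after a RefSeq start on GRCm38.p6. Capitals mark letters that match, on either strand, GAAA and GAAA with 2 bases between (the core of an interferon-stimulated response element), GGGANNNCC (an NF-kB core), TGACG or CCAAT. The Tap1 window is chr17:34187306-34187605 on the plus strand, H2-K1 is chr17:34000298-34000597 on the minus strand, H2-D1 is chr17:35262844-35263143 on the plus strand and B2m is chr2:122147437-122147736 on the plus strand.
Tap1: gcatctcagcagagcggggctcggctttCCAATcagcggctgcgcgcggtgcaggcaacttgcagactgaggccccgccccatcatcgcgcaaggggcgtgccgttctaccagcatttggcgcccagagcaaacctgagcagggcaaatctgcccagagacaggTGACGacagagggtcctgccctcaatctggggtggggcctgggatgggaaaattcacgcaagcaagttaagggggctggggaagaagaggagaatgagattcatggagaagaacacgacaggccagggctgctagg
H2-K1: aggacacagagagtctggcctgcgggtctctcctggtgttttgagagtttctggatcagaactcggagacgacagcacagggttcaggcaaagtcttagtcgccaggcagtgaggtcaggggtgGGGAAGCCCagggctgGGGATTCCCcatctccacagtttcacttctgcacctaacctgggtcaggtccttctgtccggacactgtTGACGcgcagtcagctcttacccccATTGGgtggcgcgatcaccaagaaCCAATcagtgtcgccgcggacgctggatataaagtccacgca
H2-D1: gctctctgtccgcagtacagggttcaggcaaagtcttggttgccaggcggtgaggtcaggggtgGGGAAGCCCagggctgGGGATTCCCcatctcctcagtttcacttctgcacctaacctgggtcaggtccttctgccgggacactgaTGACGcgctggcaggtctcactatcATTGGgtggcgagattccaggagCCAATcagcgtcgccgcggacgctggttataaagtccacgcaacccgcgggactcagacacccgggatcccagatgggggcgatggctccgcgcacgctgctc
B2m: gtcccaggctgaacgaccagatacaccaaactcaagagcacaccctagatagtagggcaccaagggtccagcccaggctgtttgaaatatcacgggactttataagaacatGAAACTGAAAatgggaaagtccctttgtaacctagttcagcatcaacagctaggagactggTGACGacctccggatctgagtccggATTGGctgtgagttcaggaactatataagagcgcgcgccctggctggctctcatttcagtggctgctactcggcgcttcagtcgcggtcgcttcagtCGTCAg

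Windows were held for 8 of the 10 genes (9 windows, since H2-K1 has 2 starts), and Tap2 and Nlrc5 had none. TGACG lay in 6 of the 9 windows, of 5 genes, and in 20.8% of all 32851 mouse promoter windows. CCAAT lay in 7 of the 9, of 6 genes, and in 37.4% of all. These windows are not separate sequences: both matches of Tap1 are the same bases as those of Psmb9, counted for each gene. The H2-K1 and H2-D1 windows were alike at 180 of 254 bases (70.9%) when laid side by side without gaps. In H2-K1, H2-D1 and B2m, TGACG was followed by ATTGG, which is CCAAT on the other strand, after exactly 20 bases. That spacing, looked up after the windows had been seen, occurred in 31 of the 32851 windows (0.0944%), which belong to 27 genes, and among the class I-like genes listed here H2-M3 was another. Tap1 holds both words farther apart. GGGANNNCC lay in H2-K1 and H2-D1 alone of the 8 (18.6% of all windows) and the GAAA pair in B2m alone (3.44% of all). The Tap1 and Psmb9 windows face away from each other with starts 226 bases apart and share 275 bases, from 34187306 to 34187580 on chromosome 17. A match of letters is a description of the window and no shown binding site.

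Levels spanned 3 orders of magnitude on the FPKM scale (fragments relative to exon length and to the total of the library), as the plot of levels by library shows. The exon length covers all annotated exons of a gene, so orders and ratios between genes depend on the annotation. B2m was among the most abundant transcripts of the culture, at rank 7 of 12113 measured genes in the control and rank 9 in each pressure library. The heavy chains came next, then Tapbp and Psmb10, and Tap1 and Tap2, Psmb8, Psmb9 and Nlrc5 stood at or below 27.3 FPKM in every library. In the control Psmb8 (13.04 FPKM) and Tap2 (13.3 FPKM) were neighbours, as were H2-K1 (262 FPKM) and H2-D1 (264 FPKM). All 10 genes passed the filter on low values, an average of 1 FPKM or more across the 5 libraries, which 12113 genes of the table met.

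**Figure D1:**
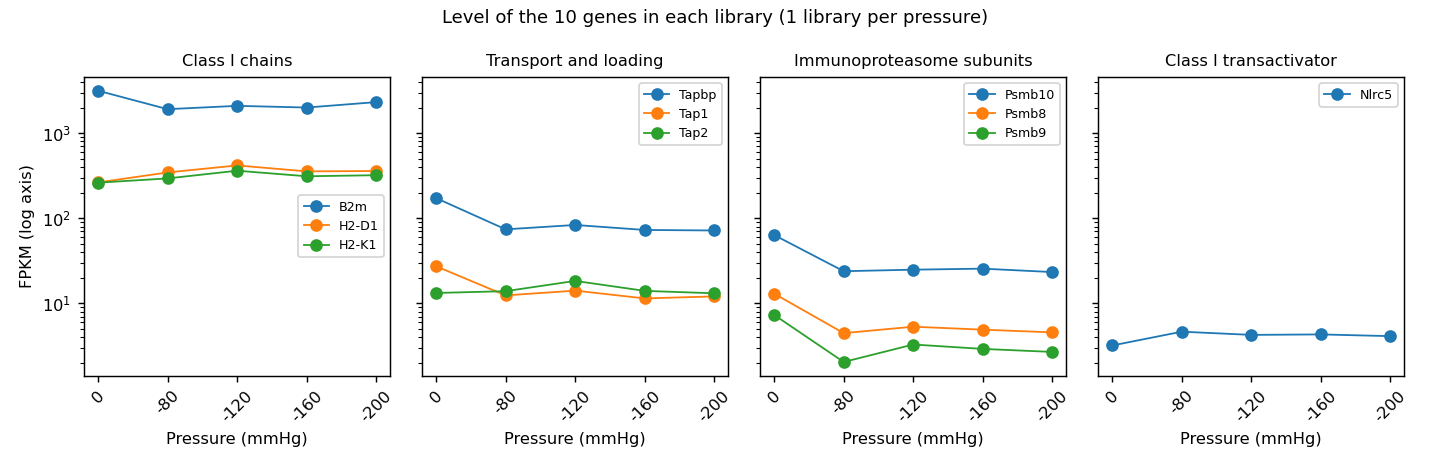
FPKM on a log axis of the 10 genes in each of the 5 libraries, from 0 mmHg (control) to -200 mmHg, 1 point per library. The immunoproteasome subunits, Tapbp and Tap1 drop between the control and -80 mmHg and stay low, whereas the heavy chains, Tap2 and Nlrc5 do not.

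The immunoproteasome subunits were lower in every pressure library than in the control. Psmb10, the inducible subunit with trypsin-like activity, had 63.6 FPKM in the control and 23.9, 24.9, 25.6 and 23.4 FPKM at -80, -120, -160 and -200 mmHg. Psmb8, the chymotrypsin-like subunit, had 13.04 FPKM in the control and 4.48, 5.33, 4.92 and 4.57 FPKM in the same order of pressures. Psmb9, which takes the place of the caspase-like subunit, had 7.34 FPKM in the control and 2.05, 3.29, 2.92 and 2.69 FPKM. For each of these genes all 4 pressure libraries lay below the control. The pressure libraries spread most for Psmb9, whose highest share, at -120 mmHg, was 1.60 times its lowest, at -80 mmHg (95% interval 1.28 to 2.02). Their read shares (reads over the library total) were 36.7% to 40.3% of the control for Psmb10, 34.4% to 40.9% for Psmb8 and 28.0% to 44.9% for Psmb9. At -80 mmHg Psmb9 rested on 125 reads, against 494 in the control, and its share was 0.280 times the control's (95% Clopper-Pearson interval 0.228 to 0.341). These intervals, here and below, cover the counting of reads only.

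Transport and loading genes divided. Tapbp had 173 FPKM in the control and 74.1, 83.5, 72.9 and 71.9 FPKM at -80, -120, -160 and -200 mmHg. Tap1, a subunit of the transporter, had 27.3 FPKM in the control and 12.4, 14.1, 11.5 and 12.1 FPKM under pressure. Both stood at about the same fraction of the control in every pressure library, 41.7% to 48.3% of its read share for Tapbp and 41.9% to 51.7% for Tap1. Tap2, the other subunit, had 13.3 FPKM in the control and 13.9, 18.4, 14.04 and 13.2 FPKM under pressure. Its read share was 1.39 times the control's at -120 mmHg (interval 1.27 to 1.51), and at the other 3 pressures the interval of the ratio included 1, from 0.903 to 1.16 over the 3. Tap1 and Tap2 have their exons on the same strand of chromosome 17, from 34187553 to 34197225 and from 34203527 to 34216321, with Psmb8 between them from 34197721 to 34201454.

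The chains of the class I molecule moved apart. B2m had 3151 FPKM in the control and 1912, 2092, 1998 and 2315 FPKM at -80, -120, -160 and -200 mmHg, 60.7% to 73.5% of the control's read share. H2-D1 had 264 FPKM in the control and 345, 418, 356 and 359 FPKM under pressure. H2-K1 had 262 FPKM in the control and 294, 362, 311 and 321 FPKM under pressure. Thus the control library was the highest of the 5 for the light chain and the lowest of the 5 for both heavy chains. With 12505 to 17875 reads per library counting error was small: the share of H2-D1 was 1.31 to 1.58 times the control's and that of H2-K1 1.12 to 1.38 times, and no interval of these ratios included 1. Near-identical paralogs can share reads with these genes. Of the distinct 50-base windows in the annotated transcripts, 12.8% of those of H2-D1 and 9.63% of those of H2-K1 occur in another gene's transcripts as well, and 0% of those of B2m. Nlrc5 had 3.21 FPKM in the control and 4.66, 4.27, 4.33 and 4.13 FPKM under pressure, on 501 to 658 reads, so it too was lowest in the control.

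By the rule of size, a difference of at least 1 in log2(FPKM + 1), a scale that understates changes of low genes, 5, 3, 5 and 5 of the 10 genes fell at -80, -120, -160 and -200 mmHg, and 0 rose at any pressure. Of all 12113 measured genes 6.89%, 6.45%, 6.03% and 6.38% fell at these pressures by the same rule, and 10.7%, 8.85%, 9.59% and 9.1% rose. Psmb8, Psmb10 and Tapbp fell at all 4 pressures (3 of 10, against 4.46% of all measured genes), and 0 of 10 rose at all 4 (6.49% of all). Tap1 and Psmb9 missed the rule at -120 mmHg only, with differences of -0.91 and -0.96. The remaining 5 genes stayed within the rule throughout, as did 78.1% of all genes. Differences ran from -1.41 to -1.28 for Psmb10, -1.36 to -1.15 for Psmb8, -1.45 to -0.96 for Psmb9, -1.25 to -1.04 for Tapbp and -1.19 to -0.91 for Tap1. They were -0.72 to -0.44 for B2m, -0.01 to 0.44 for Tap2, 0.29 to 0.43 for Nlrc5, 0.17 to 0.47 for H2-K1 and 0.39 to 0.66 for H2-D1. The median of the 10 differences was -0.90, -0.75, -0.87 and -0.78 at -80, -120, -160 and -200 mmHg, while the median of all measured genes was 0.16, 0.14, 0.15 and 0.14. Relative to that shift, H2-K1 stood 0.01 to 0.32 and H2-D1 0.23 to 0.52 above the typical gene, Tap2 between -0.15 and 0.30 and B2m between -0.88 and -0.58.

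**Figure D2:**
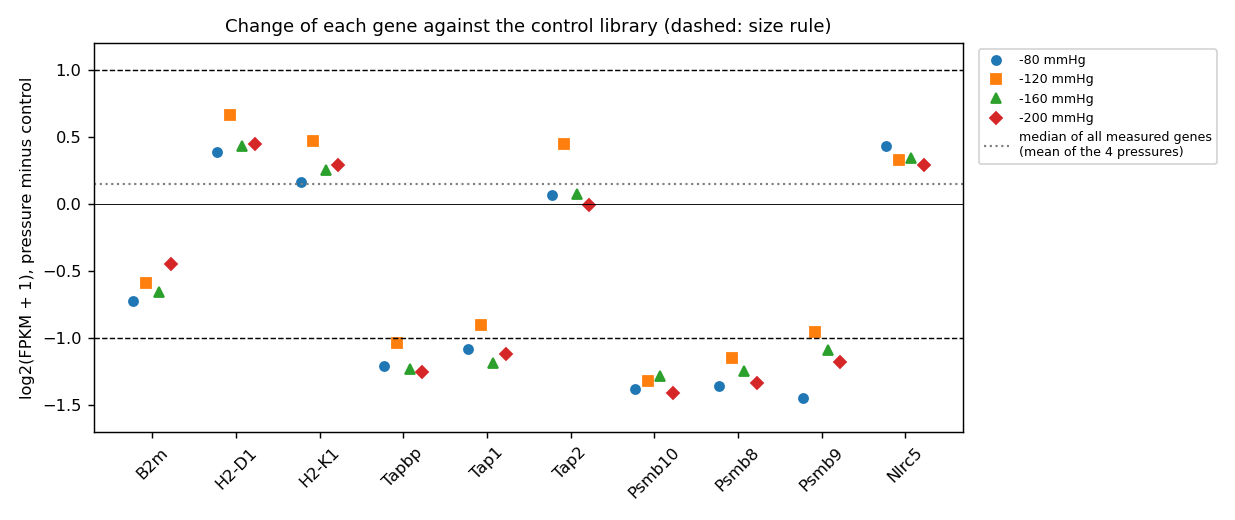
Difference in log2(FPKM + 1) between each pressure library and the control for the 10 genes, 1 point per pressure, with the size rule at 1 and -1 (dashed) and the mean over the pressures of the median of all measured genes (dotted). The immunoproteasome subunits, Tapbp and Tap1 sit near or below -1, B2m between -0.72 and -0.44, and the other 4 genes at or above -0.01.

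The standard proteasome subunits lay lower too, so each inducible subunit was set against the standard subunit it replaces, within the same library. The ratio of Psmb10 to Psmb7 was 1.69 in the control and 0.853, 0.843, 0.839 and 0.748 at -80, -120, -160 and -200 mmHg. Which of them stands higher depends on the exon lengths, 1705 bases for Psmb10 and 3421 for Psmb7. In reads Psmb7 was above Psmb10 in the control as well, with 2364 against 1996. Psmb8 stood at 14.8% of Psmb5 in the control and at 7.13%, 7.19%, 8.21% and 7.60% under pressure. Psmb9 stood at 6.64% of Psmb6 in the control and at 2.98%, 4.42%, 4.09% and 3.72% under pressure. Over the control, these ratios were 0.442 to 0.503 for Psmb10, 0.483 to 0.556 for Psmb8 and 0.449 to 0.666 for Psmb9. The 95% conditional exact intervals of the odds ratio of reads lay below 1 throughout, the highest bound being 0.793 for Psmb9 at -120 mmHg. The standard partners themselves did not pass the size rule: the differences were -0.67 to -0.56 for Psmb6, -0.55 to -0.25 for Psmb5 and -0.41 to -0.26 for Psmb7. Summed over the 3 sites in FPKM, inducible transcripts stood at 18.7% to 20.7% of the standard ones under pressure, against 35.6% in the control.

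The same kind of ratio was taken, after the values had been seen, for partners that form 1 complex. Tap1 to Tap2 was 2.06 in the control and 0.892, 0.769, 0.816 and 0.919 at the pressures in order. Which subunit stands higher depends on the exon lengths. In reads Tap1 was above Tap2 in every library, with 2755 against 923 in the control and 1285 against 1154 at -120 mmHg. B2m to the sum of H2-K1 and H2-D1 was 5.997 in the control and 2.99, 2.68, 2.996 and 3.41 under pressure. H2-D1 to H2-K1 moved little, with 1.12 to 1.18 under pressure and 1.006 in the control.

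**Figure D3:**
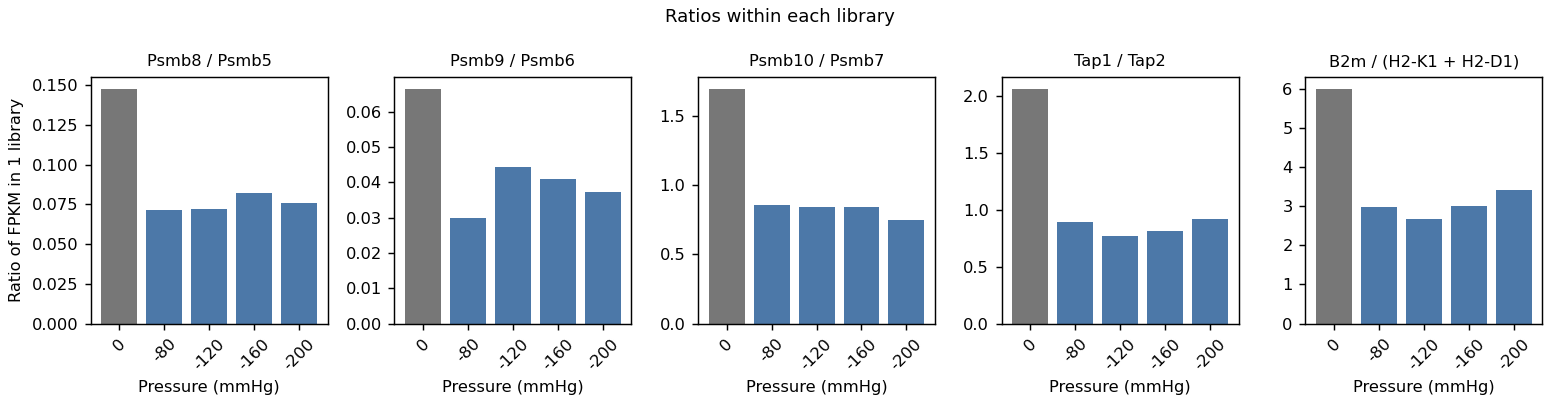
Ratios of FPKM within each library, from 0 mmHg (control, grey) to -200 mmHg (blue), 1 library per bar and axes from 0. For each of the 5 ratios the control bar is the tallest, for example 0.748 to 0.853 under pressure against 1.69 in the control for Psmb10 over Psmb7.

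Among the 4 pressures, levels followed no order of pressure, but the library at -120 mmHg was the highest for 7 of the 10 genes: H2-K1, H2-D1, Tap1, Tap2, Tapbp, Psmb8 and Psmb9. Of all measured genes 24.2% were highest in that library. Set against the other 3 pressures together, the read share at -120 mmHg was 1.34 times as high for Tap2 (95% Clopper-Pearson interval 1.25 to 1.44), 1.28 times for Psmb9 (1.08 to 1.52), 1.18 times for H2-D1 (1.16 to 1.201) and 1.17 times for H2-K1 (1.15 to 1.19). It was 1.18 times for Tap1 (1.11 to 1.26) and 1.14 times for both Tapbp (1.11 to 1.18) and Psmb8, whose interval of 0.999 to 1.31 included 1. For Psmb10, B2m and Nlrc5 the ratios of 1.03, 1.005 and 0.979 had intervals that included 1. Of the other class I and class I-like genes, 13 of 20 measured were highest at -120 mmHg, and so was Ifnb1, the interferon beta gene, with 12 reads there against 1, 4 and 2 at -80, -160 and -200 mmHg and 41 in the control. The pattern was noticed in the data, each pressure is a single library, and the part of Ifnb1 in it was not tested.

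**Figure D4:**
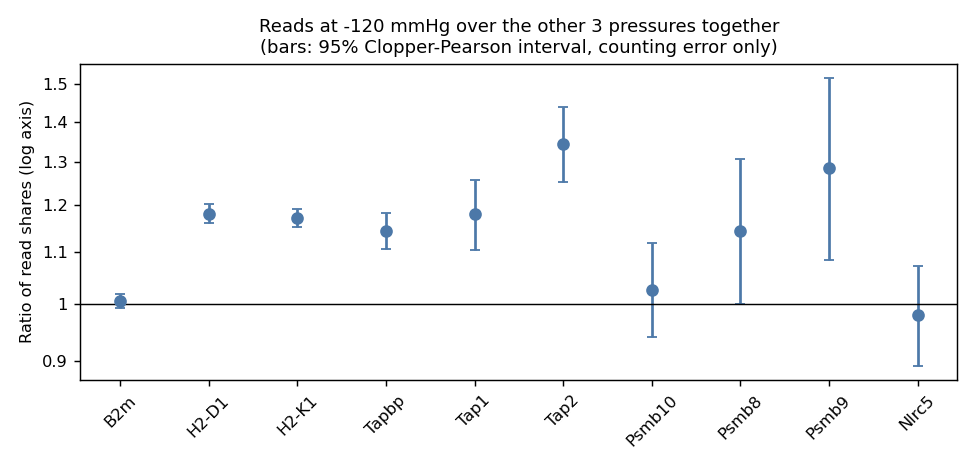
Share of reads at -120 mmHg over that of the other 3 pressure libraries together for each of the 10 genes, on a log axis, with 95% Clopper-Pearson intervals for counting error. Tap2 (1.34) and Psmb9 (1.28) lie highest, and the points of B2m, Nlrc5 and Psmb10 lie at 1 within their intervals.

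The rest of the pathway was read from lists of genes. In the list of other class I and class I-like chains, 20 of 25 genes were measured, 3 fell and 1 rose at all 4 pressures, and 14 stayed within the rule throughout. Of all measured genes 4.46% fell and 6.49% rose at all 4, and 78.1% stayed within the rule. The median difference of the list was 0.04 to 0.20. H2-T24 had 17.9 FPKM in the control and 0.854, 1.90, 1.29 and 1.04 FPKM at -80, -120, -160 and -200 mmHg, the largest decrease of the list. H2-T22, whose product is known as a ligand of some gamma-delta T cells, stood at 41.6 to 49.8 FPKM under pressure, against 124 FPKM in the control, and it shares 31.2% of its 50-base windows with H2-T10, so reads may be split between them. The measured genes of the Q region stayed within the rule. H2-Q4, for example, stood at 66.9 to 79.1 FPKM under pressure, against 67.1 FPKM. H2-T23, which encodes the Qa-1 molecule read by NKG2A receptors, stood at 85.8 to 101.3 FPKM under pressure, against 106 FPKM in the control.

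Of 22 loading and trimming partners 21 were matched and measured. At all 4 pressures 0 fell and 1 rose (4.46% and 6.49% of all measured genes), and 19 stayed within the rule, as did 78.1% of all. The median difference was 0.07 to 0.21, with 11 genes above and 6 below the control at all 4 pressures. Of all measured genes 33.3% lay below it at all 4. With a 1.5-fold threshold 3 fell and 3 rose at all 4. The riser was Ide, the insulin-degrading enzyme, at 21.3 to 24.05 FPKM under pressure, against 7.45 FPKM in the control. The chaperone Calr (calreticulin) of the loading complex stood at 763 to 904 FPKM under pressure, against 608 FPKM in the control, differences of 0.33 to 0.57 in the direction opposite to Tapbp, its partner in that complex. Psme2 and Erap1, both known to respond to interferons, lay lower without reaching the rule at all 4 pressures. Psme2, a subunit of the PA28 activator of the proteasome, stood at 46.4 to 53.6 FPKM under pressure, against 95.3 FPKM in the control, and passed at -80 mmHg only. Erap1, the aminopeptidase that trims peptides in the endoplasmic reticulum, stood at 2.98 to 3.29 FPKM under pressure, against 6.38 FPKM in the control (differences of -0.89 to -0.78). In the standard 20S core all 14 genes were measured, with a median of -0.68 to -0.53. Below the control at all 4 pressures lay 13 (33.3% of all measured genes did), and 0 passed the rule at all 4 (4.46%). Psma2, Psma5 and Psmb2 passed it at -80, -120 and -160 mmHg, 3 of 14 against 6.89%, 6.45% and 6.03% of all. Their mean differences of -1.07, -1.04 and -1.04 were near that of Tap1 (-1.07). The other 11 stayed within the rule throughout, as did 78.1% of all.

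Of 22 measured transcription regulators of class I genes (23 listed) 1 rose at all 4 pressures and 20 stayed within the rule. Of all measured genes 6.49% and 78.1% did. The median difference was 0.14 to 0.22. Rfx5, the DNA-binding subunit of the factor that occupies the X box, had 1.45 FPKM in the control and 4.997, 4.16, 4.50 and 4.49 FPKM under pressure, so it and Nlrc5 were both lowest in the control. Irf1, which binds interferon response elements, stood at 9.49 to 9.61 FPKM under pressure, against 15.01 FPKM in the control (differences of -0.61 to -0.59). Among 11 measured of 18 genes for interferons, their receptors and signalling, 1 fell and 0 rose at all 4 pressures and 9 stayed within the rule. The shares of all measured genes were 4.46%, 6.49% and 78.1%. The median difference of the list was -0.62 to -0.48. The gene that fell was Usp18, an interferon-induced brake on the receptor, at 33.7 to 43.1 FPKM under pressure, against 119.7 FPKM in the control. Ifnb1 averaged under 1 FPKM and so was not counted, and Ifng had 0 reads in all 5 libraries.

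**Figure D5:**
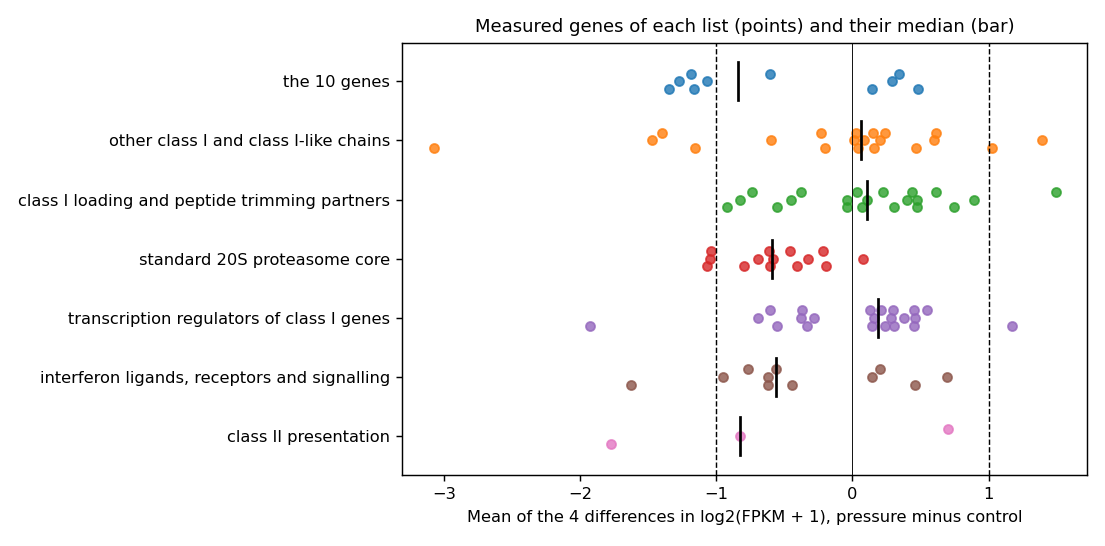
Mean over the 4 pressures of the difference in log2(FPKM + 1) from the control for each measured gene (points) and the median of each list (bar), with the size rule at 1 and -1 (dashed). The 10 genes fall into a group near -1.2 and a group above 0 with B2m between, and the standard 20S core lies mostly between -1.1 and 0.

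The summed level of 10 stromal markers was 1449 to 1653 FPKM under pressure, against 3000 FPKM in the control. Ly6a and Col1a1 carried most of that sum, and the markers did not move in 1 direction. Of 8 measured, 5 lay below and 3 above the control at all 4 pressures, with a median difference of -0.54 to -0.43. Of all measured genes 33.3% lay below it at all 4. Ly6a (Sca-1) was the 1 of 8 that fell by the rule at all 4 (4.46% of all measured genes did). It stood at 622 to 828 FPKM under pressure, against 1740 FPKM in the control. Col1a1, a collagen chain, stood at 435 to 564 FPKM under pressure, against 930 FPKM in the control, and Pdgfra at 63.7 to 71.5 FPKM under pressure, against 44.3 FPKM in the control. Lepr, Thy1, Eng and Nt5e stood under 3 FPKM in every library, and each was lowest in the control. Thy1 rested on 1 control read, against 51 to 91 reads per pressure library. It rose by the size rule at -80, -120 and -200 mmHg and missed it at -160 mmHg (0.97). Lepr and Nt5e did not pass the filter on low values. Lepr rested on 4 control reads, against 24 to 50 per pressure library, and Nt5e on 51, against 128 to 184. For Eng the control held 100 reads and the pressure libraries 105 to 163. Of 12 class II presentation genes 9 had at most 10 reads in every library, among them Ciita, the master regulator, at 0 to 7 reads and H2-Aa at 0 reads. The other 3 were measured. Cd74, the invariant chain, was the 1 of these 3 that fell at all 4 pressures (4.46% of all measured genes did). It had 8 to 20 reads under pressure, against 118 reads in the control. Ifi30 stood at 37.9 to 47.5 FPKM under pressure, against 75.7 FPKM in the control. H2-DMa went the other way, at 4.22 to 5.29 FPKM under pressure, against 2.57 FPKM in the control. Markers of other antigen-presenting cells moved with the contrast: the summed level of 15 macrophage and dendritic markers was 68.2 to 75.9 FPKM under pressure and 30.1 FPKM in the control. Cd14, Lyz2 and Cd68 carried it and rose at all 4 pressures, as did 6.49% of all measured genes. Several defining markers of macrophages and dendritic cells were at or near 0. Itgam, C1qa and C1qb were at 0 reads in every library and Ptprc at no more than 2 reads. By contrast, Batf3, also measured in this list, was lower under pressure. It stood at 0.485 to 0.981 FPKM there, against a control value of 2.45 FPKM. Its decrease reached the size rule at -80 mmHg (-1.01) and -200 mmHg (-1.22). The summed level of 10 lymphoid markers stayed under 1 FPKM, with 0 of them measured, and that of 8 endothelial markers was 3.45 to 4.99 FPKM under pressure and 1.15 FPKM in the control. Plvap carried that sum, at 2.70 to 4.18 FPKM under pressure and 0.711 FPKM in the control, while Emcn and Cldn5 had 0 reads in every library and Cdh5 at most 2. Below the filter, Kdr had 20 control reads against 53 to 73 under pressure, and Pecam1 1 against 6 to 12. Vwf went the other way, with 19 against 9 to 16. The part of the stromal, macrophage and endothelial markers in the class I values was not tested. In bulk RNA, fewer cells of a type and less RNA per cell cannot be told apart.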

How the data were processed

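The deposited table gives FPKM values made by the authors for 5 libraries. The submitters' processing notes name HISAT2, SAMtools and featureCounts 1.5.0-p3, and as build rn6, which is rat. The 55401 gene IDs, however, are those of mouse, and the values become whole reads with mouse exon lengths, so a mouse annotation was applied. Symbols, positions (GRCm38) and exon lengths came from GENCODE M21, in which 55141 IDs were found, 54349 of them in the same version. For 98.8% of genes FPKM times exon length came out as whole reads (tolerance 0.001). Those reads gave the library totals and counting intervals at 95%, and were put through no count model. The strand setting of the counting is not stated. Tap1 and Psmb9 lie on opposite strands and share 212 exon bases, antisense genes overlap 498 exon bases of Psmb8, 904 of Tapbp and up to 533 of Tap2, and reads there may be shared.

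With 1 library per condition genes were counted by size: a difference of at least 1 in log2(FPKM + 1) from the control, among 12113 genes that averaged 1 FPKM or more. The 10 genes, lists, motifs and ratios were chosen with earlier results of these data known. Genes outside the 10 were named when they passed the size rule at all 4 pressures (up to 6 per list and direction), were 1 of 11 fixed names, or were among 5 nearest neighbours, and 1 gene named by this rule is not reported here. H2-Q4, H2-T23, Psme2, H60b, Raet1e, Ifi30, H2-DMa, H2-Aa, Psma2, Psma5, Psmb2 and the cell markers were named after their values were seen. H2-M3 was named for its promoter window and H2-T10 for the 50-base windows it shares. Promoter windows came from RefSeq (GRCm38.p6). The size rule was tried on simulated reads with counting error only, so spread between cultures was not covered. It called 78% to 83% of genes set 3-fold lower, 95% to 100% of those set 3-fold higher and 0.325% to 0.402% of unchanged genes. Alternatives were pseudocounts of 0.1 and 5, no filter, a limit of 5 FPKM on the mean, scaling to a trimmed mean, quantile normalization, upper-quartile scaling, totals without the 50 most abundant genes, and a 1.5-fold threshold. Calculations ran in Python 3.11.15 (scipy 1.17.1, numpy 2.4.6, pandas 2.3.3), with figures by matplotlib 3.10.9.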

Additional observations from a re-analysis of the deposited data

How the results depend on the processing

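No paired analysis was possible because each condition had 1 library. Settings share the data and are not independent checks. With a pseudocount of 5, which weighs down genes of low level, 2 of the 10 genes, Psmb10 and Tapbp, fell at each pressure and so at all 4. Psmb8 then missed the rule at every pressure (-0.93 to -0.80), as did Tap1 and Psmb9. With scaling by the trimmed mean, 5 fell at -120 mmHg and 5 at all 4 pressures, Tap1 and Psmb9 included (-1.04 and -1.06 at -120 mmHg). With the 1.5-fold threshold 5 fell at all 4 pressures, and at -120 mmHg 6 fell and 1 rose. Under quantile normalization 1 (H2-D1, 1.02) rose at -120 mmHg, and Tapbp lay at -0.97 to -0.79 at -80, -120 and -160 mmHg. The differences of Tap2 at -80 and -160 mmHg, near 0 as reported, became -0.07 and -0.07 with the trimmed mean, and at -200 mmHg 0.01 with upper-quartile scaling.

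Over the control, the Psmb8 to Psmb5 ratios under quantile normalization were 0.383, 0.414, 0.448 and 0.432 at -80, -120, -160 and -200 mmHg, and the Psmb9 to Psmb6 ratios 0.328, 0.534, 0.466 and 0.443. With 1 added to both values the Psmb9 to Psmb6 ratio was 0.585 at -80 mmHg and 0.673 at -200 mmHg. Counts of other lists at all 4 pressures moved as follows. The number of other class I chains that rose was 2 with a pseudocount of 0.1 or 1.5-fold and 0 with a pseudocount of 5 or at 5 FPKM, where 1 fell. In the 20S core 2 fell with a pseudocount of 0.1 or the trimmed mean and 5 at 1.5-fold. Of the regulators 0 rose with a pseudocount of 5, at 5 FPKM, with the trimmed mean or under quantile normalization, and 3 fell at 1.5-fold. Of the interferon list 2 fell with no filter or with the 50 most abundant genes left out, Ifnb1 being the addition, and 4 fell and 1 rose at 1.5-fold. Of the loading partners 3 fell and 3 rose at 1.5-fold. In the class II list 0 fell with a pseudocount of 5 or at 5 FPKM and 2 at 1.5-fold. The cause of these moves was not tested.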

Other observations

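Stress ligands with a class I-like fold, which the NKG2D receptor of NK cells reads, went in both directions. Raet1d had 10.9 FPKM in the control and 2.71, 4.35, 3.71 and 2.65 FPKM at -80, -120, -160 and -200 mmHg, and it fell at all 4 pressures. Raet1e had 4.003 FPKM in the control and 0.835, 1.28, 1.58 and 1.33 FPKM, and it missed the size rule at -160 mmHg (-0.96). Raet1d shares 55.8% of its 50-base windows with Raet1e, so the reads of this pair may be split between them. Ulbp1 had 197 to 275 reads in each pressure library, against 19 in the control, and rose at all 4 pressures. H60b stood at 4.27 to 5.84 FPKM under pressure, against 3.405 FPKM in the control, within the size rule throughout.

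The 5 genes outside the lists whose 4 differences lay nearest to the medians of the 10 genes were Rpl36, Cst3, Nhp2, Rpl29 and Park7, at Euclidean distances of 0.0654 to 0.0815 over the 4 pressures. Since the median of the 10 lies between a lower and a higher group, none of the 10 need resemble these genes.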
